A study of Macaca fascicularis with 86 samples.

Results

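The genes described here are those of the epithelial-mesenchymal transition and the cadherin switch in the gastrulating embryo of the crab-eating macaque, Macaca fascicularis. They form a set of 10: the cadherins CDH1, CDH2 and CDH11, the epithelial surface and junction genes EPCAM, CLDN6 and CLDN7, the transcription factors SNAI1 and ZEB2, and the mesenchymal genes VIM and FN1. Of these, 9 have a row in the deposited table of 17023 genes, and all 9 passed the filter on low values that left 15216 genes for testing; CLDN6 is not analysed here. The samples are 86 regions cut by laser from cryosections of 3 embryos and sequenced as polyadenylated RNA by Geo-seq, a method for transcriptomes of small captured tissue pieces. There are 36 regions of 1 E20 embryo (7 sections), 15 of E18 embryo 1 (4 sections) and 35 of E18 embryo 2 (6 sections). Embryonic day, embryo, section and sector are the only group labels; no treatment or genotype is given, every sample is labelled as embryo tissue, and no label names a germ layer or says where the numbering starts.

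In an epithelium, cells are held together by E-cadherin, the product of CDH1, and by tight junctions built from claudins. At the primitive streak, epiblast cells leave the epithelium: SNAI1 and related repressors such as ZEB2 can repress CDH1, N-cadherin (CDH2) is gained, and the cells move out as mesoderm and definitive endoderm. Mesenchymal cells carry the intermediate filament vimentin (VIM), secrete fibronectin (FN1) and often use cadherin 11 (CDH11). Yolk sac endoderm is a secretory epithelium that lies over extraembryonic mesenchyme.

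Levels are TPM, a length-scaled share of each library's transcripts, so that genes can be compared within a region. No label names streak, mesenchyme or yolk sac, so regions were placed by scores over marker lists that hold none of the 9 genes. Yolk sac endoderm markers (17 genes such as APOA1, TTR and AFP) summed to a median of 55539 TPM in E20 sections 1 to 5 and 22.2 TPM in E20 sections 6 and 7. Those sums had medians of 217 TPM in E18 embryo 1 and 65.0 TPM in E18 embryo 2. Primitive streak markers (16 genes such as TBXT, MIXL1 and EOMES) summed to at most 51.4 TPM in E20 sections 1 to 5, where TBXT was listed at 0 in all 28 regions, and reached 3323 TPM in E20 sections 6 and 7, 2982 TPM in E18 embryo 1 and 5281 TPM in E18 embryo 2. Extraembryonic mesenchyme markers (15 genes such as COL3A1, LUM and POSTN) were present in every group, with maxima from 4593 to 11439 TPM. The streak material of these data is therefore in E20 sections 6 and 7 and in both E18 embryos, and the yolk sac endoderm is almost wholly in E20 sections 1 to 5. The number of genes at 1 TPM or more had a median of 8451.5 per region in E20 sections 1 to 5, 10522.5 in E20 sections 6 and 7, 10564 in E18 embryo 1 and 12186 in E18 embryo 2. In captured tissue, fewer cells of a type and less RNA per cell cannot be told apart.

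CDH1 was nearly missing from the yolk sac regions. In E20 sections 1 to 5 it was listed at 0 in 21 of 28 regions and reached 24.5 TPM in a single region, sector 3 of section 1. In E20 sections 6 and 7 it was 2.08, 8.86 and 31.4 TPM (lowest, median and highest of 8 regions). In the E18 embryos the lowest, median and highest values were 0, 7.89 and 45.8 TPM in embryo 1 and 0.749, 12.3 and 41.7 TPM in embryo 2. All 9 regions of E20 sections 4 and 5 were listed at 0, and every region of sections 6 and 7 had at least 2.08 TPM. CDH1 thus set E20 sections 1 to 5 apart from the other 3 groups, with overlap through the few regions in which it was detected.

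CDH2 was present in nearly all regions, over a wide range within each group. The lowest, median and highest values were 0.551, 23.9 and 98.8 TPM in E20 sections 1 to 5, and 4.68, 11.7 and 296 TPM in E20 sections 6 and 7. In E18 embryo 1 they were 2.40, 30.6 and 294 TPM, and in E18 embryo 2 they were 1.91, 116 and 429 TPM. The groups overlapped throughout. The high values of E20 sections 6 and 7 were those of 2 regions, sector 2 of section 6 (253 TPM) and sector 3 of section 7 (296 TPM), which also held the most streak marker RNA of that embryo (MIXL1 333 and 933 TPM). The other 6 regions of those sections had 4.68 to 28.1 TPM.

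The balance of the cadherins in a region was taken as log2(CDH2 + 1) minus log2(CDH1 + 1), in TPM. CDH2 exceeded CDH1 in 25 of 28 regions of E20 sections 1 to 5, in 5 of 8 regions of E20 sections 6 and 7, in 8 of 15 regions of E18 embryo 1 and in 27 of 35 regions of E18 embryo 2. The balance averaged 3.93 ± 2.29 log2 units in E20 sections 1 to 5 and 1.13 ± 2.91 in E20 sections 6 and 7, against 1.95 ± 3.40 in E18 embryo 1 and 2.45 ± 2.57 in E18 embryo 2 (SD over regions). The spread inside each group was larger than most distances between groups. Both genes stood at 10 TPM or more in the same region in 20 of 35 regions of E18 embryo 2, but in only 2 of 36 regions of the E20 embryo and 2 of 15 regions of E18 embryo 1. High CDH2 was thus reached either with CDH1 detected, as in sector 6 of section 5 of E18 embryo 2 (364 TPM CDH2 and 16.1 TPM CDH1), or with CDH1 listed at 0, as in sector 1 of section 3 of the E20 embryo (98.8 TPM CDH2). Across regions, CDH1 and CDH2 ran against each other in every group. Pearson's r was -0.36 (rho -0.42) over the 28 regions of E20 sections 1 to 5 and -0.44 (rho -0.67) over the 8 of E20 sections 6 and 7. It was -0.59 (rho -0.65) over the 15 regions of E18 embryo 1 and -0.42 (rho -0.45) over the 35 of E18 embryo 2, and over all 36 regions of the E20 embryo it was -0.19. Regions of an embryo share an animal and differ in tissue make-up and in genes detected.

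**Figure D1:**
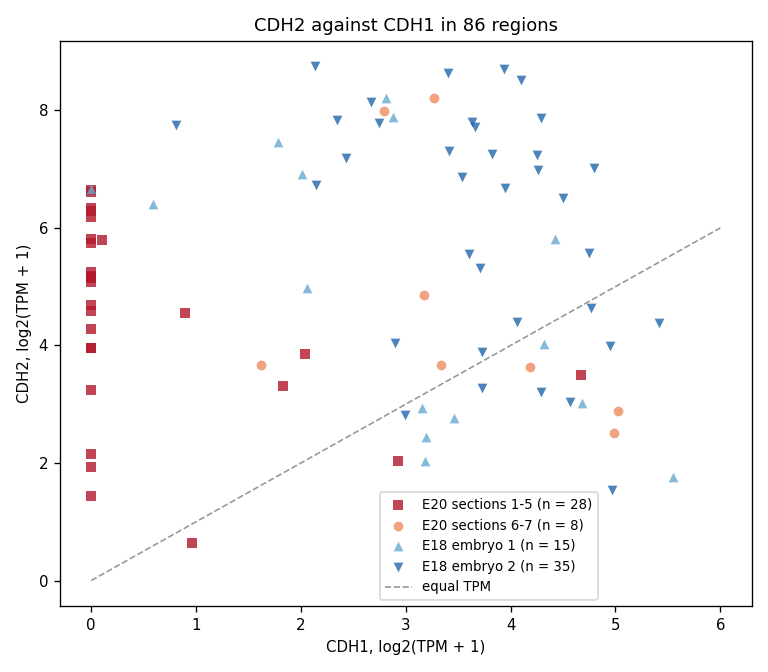
CDH2 against CDH1 in each of the 86 regions, both as log2(TPM + 1), by embryo and, for the E20 embryo, by section group; the dashed line marks equal TPM. Most regions of E20 sections 1 to 5 lie on the left edge, where CDH1 is listed at 0, while the regions of E18 embryo 2 spread over both axes, with CDH2 above CDH1 in 27 of 35.

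EPCAM encodes an epithelial adhesion molecule of the cell surface. It was at 78.5 TPM or more in all 86 regions. The lowest, median and highest values were 273, 546 and 916 TPM in E20 sections 1 to 5, and 111, 272 and 2272 TPM in E20 sections 6 and 7. In E18 embryo 1 they were 106, 327 and 507 TPM, and in E18 embryo 2 they were 78.5, 184 and 603 TPM. EPCAM was thus high in the same yolk sac regions in which CDH1 was mostly listed at 0. Elsewhere the relation of EPCAM to CDH1 varied, with r = 0.675 (rho 0.524) in the 8 regions of E20 sections 6 and 7, 0.525 (rho 0.386) in the 15 regions of E18 embryo 1 and -0.113 (rho -0.247) in the 35 regions of E18 embryo 2. The highest values, 2272 and 1469.7 TPM, came from sector 4 of E20 sections 6 and 7, where the amnion markers GABRP (455 and 436 TPM) and ISL1 (32.8 and 23.4 TPM) and the mesenchyme marker COL3A1 (1032 and 1309 TPM) were high together.

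CLDN7, which encodes a tight junction claudin of epithelia, was, like CDH1, low in the yolk sac regions. It was listed at 0 in 15 of 28 regions of E20 sections 1 to 5, where its highest value was 19.6 TPM. The lowest, median and highest values were 6.39, 19.1 and 48.8 TPM in E20 sections 6 and 7, 1.06, 18.9 and 54.7 TPM in E18 embryo 1, and 5.26, 35.4 and 70.7 TPM in E18 embryo 2. In 26 of 28 regions of E20 sections 1 to 5, CLDN7 lay below its lowest value in sections 6 and 7. CLDN7 and CDH1 were correlated at r = 0.777 (rho 0.571) in the 8 regions of E20 sections 6 and 7, but at 0.09 over the 15 regions of E18 embryo 1 and -0.08 over the 35 of E18 embryo 2.

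SNAI1, the zinc finger repressor associated with ingression at the streak, was a low gene. It was listed at 0 in 13 of 28 regions of E20 sections 1 to 5, with a highest value of 7.65 TPM. The lowest, median and highest values were 0.610, 3.71 and 35.8 TPM in E20 sections 6 and 7, 0, 3.91 and 9.21 TPM in E18 embryo 1, and 0.500, 6.11 and 38.4 TPM in E18 embryo 2. Its 2 highest values, 38.4 and 35.8 TPM, were in the regions with the highest streak scores of their embryos, sector 6 of section 5 in E18 embryo 2 (TBXT 173 TPM) and sector 3 of section 7 in the E20 embryo (TBXT 63.9 TPM).

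ZEB2, a zinc finger E-box binding repressor, was placed differently. The lowest, median and highest values were 1.10, 10.8 and 50.7 TPM in E20 sections 1 to 5, and 0.0750, 1.61 and 8.42 TPM in E20 sections 6 and 7. In E18 embryo 1 they were 0, 0.703 and 35.5 TPM, and in E18 embryo 2 they were 0.324, 10.5 and 161 TPM. The high ZEB2 values lay in regions with high mesenchyme scores rather than in the streak regions: the highest, 161 TPM, came from sector 4 of section 1 in E18 embryo 2, where COL3A1 was at 3631 TPM and TBXT at 3.79 TPM. ZEB2 and SNAI1 were correlated across regions with r = -0.39 in the E20 embryo, 0.16 in E18 embryo 1 and 0.49 in E18 embryo 2 (n as above).

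VIM and FN1 were among the most abundant of the 9 genes and were highest at the median in the yolk sac regions. For VIM the lowest, median and highest values were 215, 858 and 1797 TPM in E20 sections 1 to 5, 17.6, 97.4 and 321 TPM in E20 sections 6 and 7, 7.59, 198 and 998 TPM in E18 embryo 1, and 8.83, 112 and 1065 TPM in E18 embryo 2. For FN1 they were 78.5, 751 and 1358 TPM in E20 sections 1 to 5, 3.22, 41.0 and 712 TPM in E20 sections 6 and 7, 0.874, 370.1 and 1558 TPM in E18 embryo 1, and 6.25, 266 and 2203 TPM in E18 embryo 2. FN1 had a wide range within each embryo, and the median of E20 sections 6 and 7 was the lowest of the 4 groups for both genes. CDH11 had its highest and lowest medians in the same groups, at much lower levels. Its lowest, median and highest values were 0.802, 19.9 and 51.6 TPM in E20 sections 1 to 5, 1.60, 7.41 and 59.2 TPM in E20 sections 6 and 7, 1.64, 7.59 and 38.0 TPM in E18 embryo 1, and 1.58, 9.15 and 121 TPM in E18 embryo 2.

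**Figure D2:**
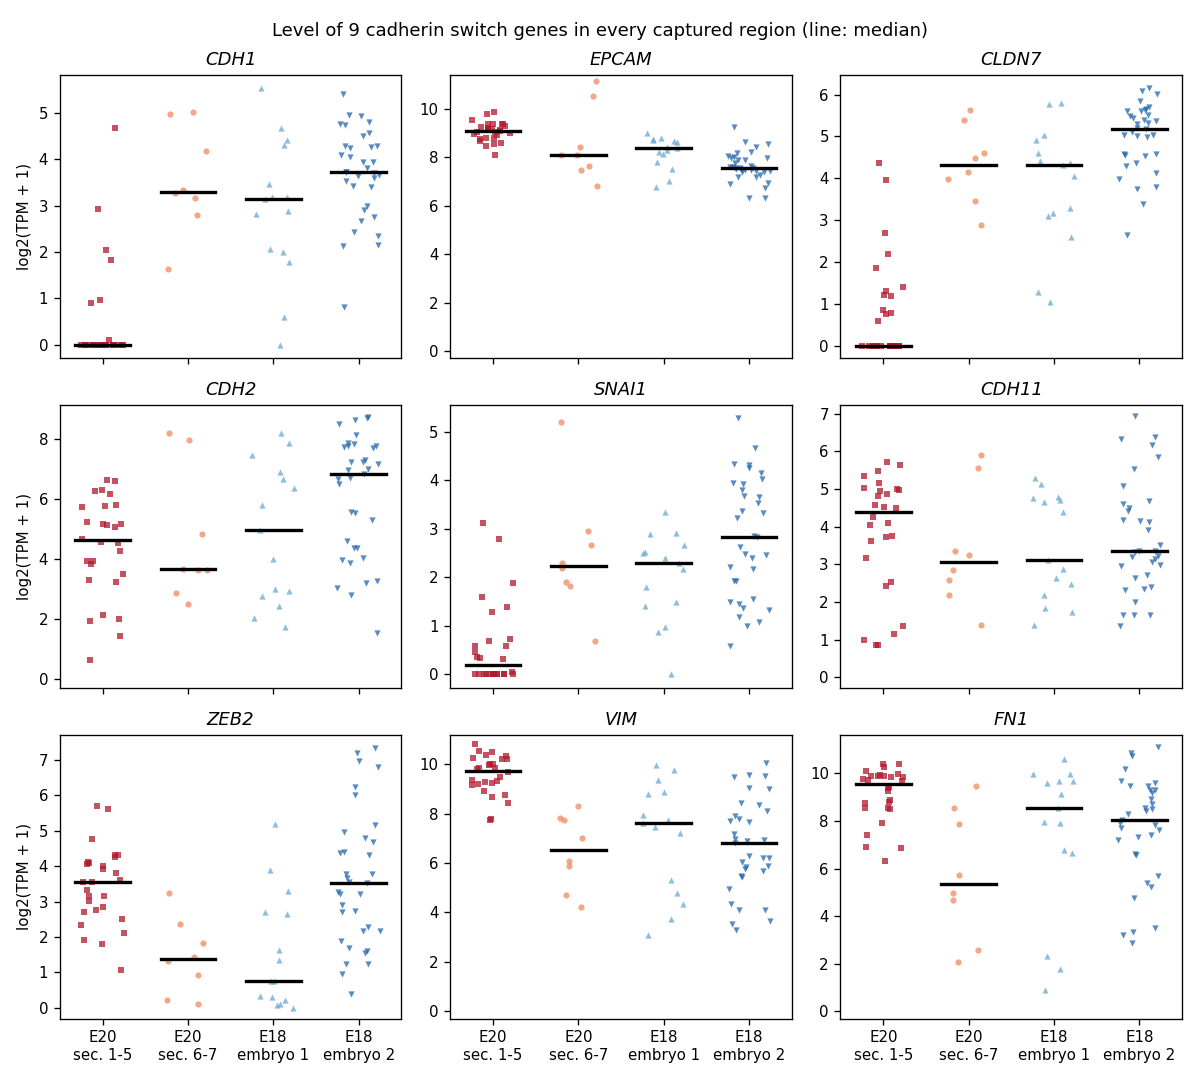
Level of each of the 9 genes in every region, as log2(TPM + 1), for E20 sections 1 to 5 (n = 28), E20 sections 6 and 7 (n = 8), E18 embryo 1 (n = 15) and E18 embryo 2 (n = 35); points are regions and lines are medians. CDH1 and CLDN7 sit at or near 0 in most regions of E20 sections 1 to 5, where VIM is at least 215 TPM and EPCAM at least 273 TPM in all 28 regions.

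The stage comparison asked which genes differ between the E20 embryo and the E18 embryos. Each embryo's regions were averaged on the log2(TPM + 1) scale, which understates changes of low genes, and the E20 mean was set against the means of the 2 E18 embryos with limma. With 1 embryo at E20 the spread comes from the E18 pair, pooled over genes. CLDN7 fell by 2.81 ± 0.54 log2 units (SE; Benjamini-Hochberg adjusted p = 1.34e-05), with means of 1.60 in the E20 embryo against 3.85 and 4.98 in the E18 embryos. CDH1 fell by 2.15 ± 0.67 (limma adjusted p = 0.0166), with means of 1.16 in the E20 embryo against 2.94 and 3.69 in the E18 embryos. VIM rose by 2.00 ± 0.48 (limma adjusted p = 0.000883), with means of 8.88 in the E20 embryo against 7.07 and 6.69 in the E18 embryos. So 3 of 9 genes passed, where 11.4% of all genes did (2.64% higher and 8.75% lower at E20), and the median of all genes was a difference of -0.44. This median was -0.06 once libraries were quantile normalized and -0.63 with mitochondrially encoded genes left out, where CDH1 no longer passed (-2.48, adjusted p = 0.114).

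The other 6 genes did not pass for stage. CDH2 differed by -1.05 (limma adjusted p = 0.0984), SNAI1 by -1.42 (0.265), EPCAM by 1.03 (0.238), FN1 by 0.81 (0.355), ZEB2 by 0.41 (0.824) and CDH11 by 0.15 (0.893). For ZEB2 the 2 E18 embryos were further apart, with means of 1.55 and 3.62, than either was from the E20 mean of 3.00.

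The stage differences depended on which E20 sections were used. With sections 6 and 7 alone, CDH1 differed from E18 by 0.23, CLDN7 by -0.09 and VIM by -0.40, and none of the 9 genes passed. With sections 1 to 5 alone, CDH1 fell by 2.84, CLDN7 by 3.59 and CDH2 by 1.11, while VIM rose by 2.69 and FN1 by 1.56 (limma adjusted p from 1.66e-08 to 0.0495). With medians over regions in place of means, none of the 15216 genes passed in limma (2021 at an unadjusted p under 0.05). Stage and the tissue captured cannot be told apart in this design.

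The primitive streak score asked which genes follow the streak within an embryo. For each embryo the log2 level of a gene was regressed on the score, the mean of the markers' z-scores scaled to an SD of 1, and the 3 embryo slopes were tested against 0 with limma (n = 3 embryos). CDH2 had the largest slope of the 9 genes: 0.73 log2 units per SD in the E20 embryo, 2.08 in E18 embryo 1 and 1.49 in E18 embryo 2, with a mean of 1.44 ± 0.23 (SE, limma adjusted p = 0.0622). CLDN7 had slopes of 1.09, 0.84 and 0.32 in the same order of embryos, with a mean of 0.75 ± 0.18 (0.177). SNAI1 had slopes of 0.87, 0.40 and 0.68, with a mean of 0.65 ± 0.16 (0.189). All 3 genes had positive slopes in 3 of 3 embryos. Still, none of the 9 genes passed, where 0.401% of all genes did (0.348% higher and 0.0526% lower). At an unadjusted limma p under 0.05 there were 3 of the 9 and 2058 of all 15216 genes. The streak score was itself correlated with the epiblast score, at r = 0.667, -0.08 and 0.39 in the same order of embryos. With the yolk sac endoderm score r was -0.60, 0.67 and 0.13. The part of these tissues in the slopes was not tested. Leaving out each embryo in turn gave 0 to 723 of all genes. Tested without the E20 embryo, CDH2 passed with a mean slope of 1.79 and 3 of the 9 genes were called; without E18 embryo 1, CDH2 passed with 1.11 and SNAI1 with 0.78, and 3 were called; without E18 embryo 2, no gene of the table was called. CDH2 also passed without the mitochondrially encoded genes (1.39) and, with SNAI1, where E20 sections 1 to 5 and 6 to 7 were separate blocks (1.62 and 0.57).

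Loss of CDH1 along the streak score was not seen as a common pattern. Its slopes were 0.79 in the E20 embryo, -0.90 in E18 embryo 1 and -0.17 in E18 embryo 2, with a mean of -0.09 ± 0.29 (limma adjusted p = 0.909). The slopes on this score differed between embryos in a limma interaction test over regions for CDH1 and FN1, a test that 4.02% of all genes passed and whose p is too small because regions are not replicates. FN1 was as divided, with slopes of -0.88, 1.64 and 0.40 in that order, and VIM with -1.07, 0.66 and -0.38. The E20 slopes mix the step between sections 1 to 5, which lack streak markers, and sections 6 and 7 with any change inside sections 6 and 7. Inside the 8 regions of E20 sections 6 and 7, CDH2 ran with the streak score at r = 0.895 (Spearman rho 0.714) and CDH1 at r = -0.30 (rho -0.52). The cadherin balance ran with the streak score at r = 0.801 (rho 0.667) in those 8 regions, 0.877 (rho 0.850) in the 15 regions of E18 embryo 1 and 0.647 (rho 0.679) in the 35 regions of E18 embryo 2, and at -0.02 (rho -0.06) over all 36 regions of the E20 embryo.

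The regions at the top of the streak score show what these slopes are made of. Sector 3 of E20 section 7 had 296 TPM of CDH2, 35.8 of SNAI1, 8.64 of CDH1, 57.9 of VIM and 51.3 of FN1. In E18 embryo 1 the highest score, 1.527 SD, was that of sector 5 of section 3, with 176 TPM of CDH2, 4.24 of SNAI1, 2.44 of CDH1, 441 of VIM and 993 of FN1. The yolk sac endoderm gene APOA1 was at 4606 TPM in that region. Sector 2 of section 4, next in that embryo at 1.522 SD, had 234 TPM of CDH2, 9.21 of SNAI1, 6.36 of CDH1, 246 of VIM and 1558 of FN1. Sector 6 of section 5 in E18 embryo 2 had 364 TPM of CDH2, 38.4 of SNAI1, 16.1 of CDH1, 65.3 of VIM and 826 of FN1. In the order given, CLDN7 was at 21.2, 31.8, 54.7 and 42.8 TPM in them. All 4 carried CDH2 at 176 TPM or more together with detectable CDH1.

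**Figure D3:**
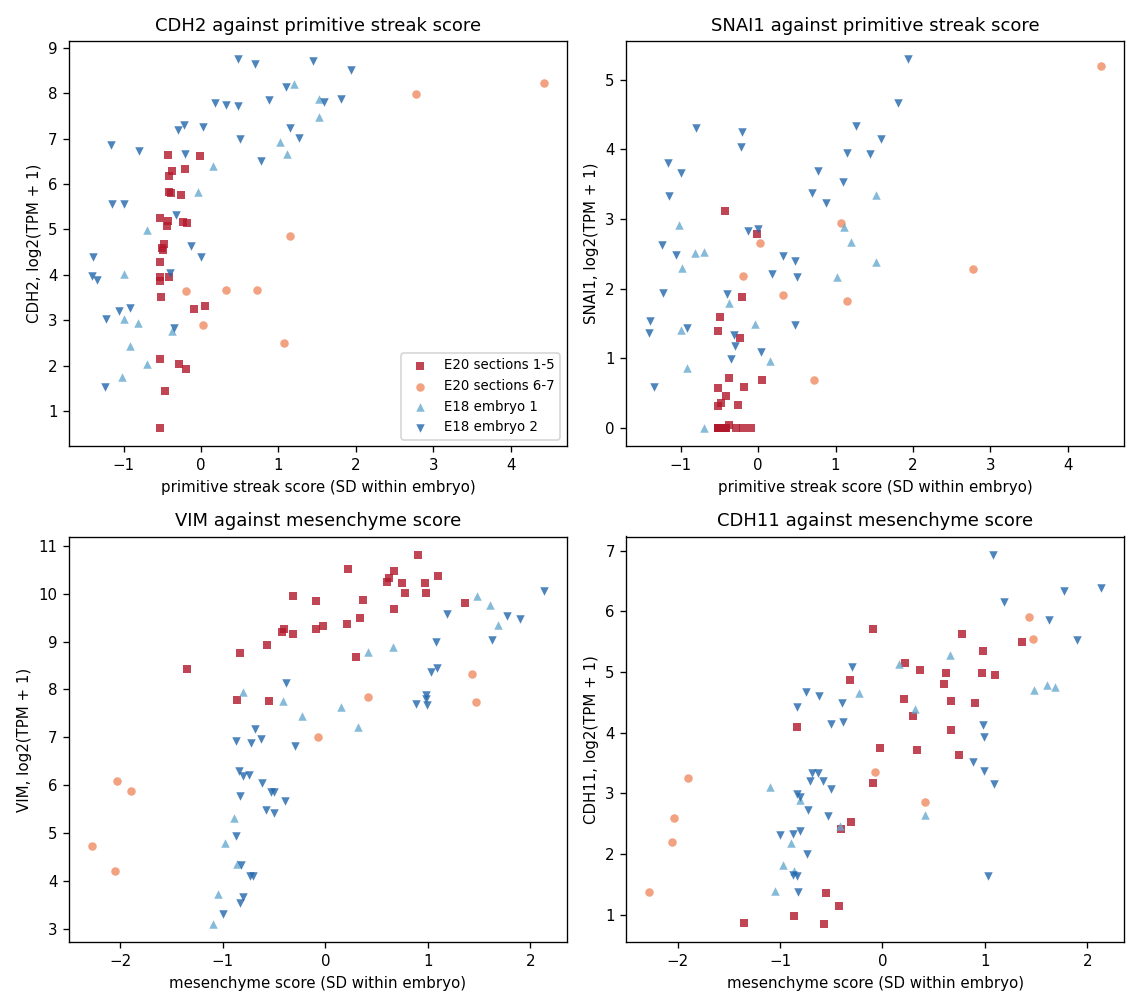
CDH2 and SNAI1 against the primitive streak score (top), and VIM and CDH11 against the mesenchyme score (bottom), each gene as log2(TPM + 1) and each score in SD within its embryo; points are the 86 regions. CDH2 climbs with the streak score in both E18 embryos and in E20 sections 6 and 7, where 2 regions reach 253 and 296 TPM, while E20 sections 1 to 5 lie in a column at low streak scores.

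Along the mesenchyme score, tested in the same way, VIM, FN1, ZEB2 and CDH11 had positive slopes and CDH2 negative ones. The E20 slopes again mix the step between the section groups with changes inside them. Inside E20 sections 1 to 5 FN1 ran against this score, as given below, and VIM and FN1 were correlated at r = -0.524. VIM rose by 1.59 ± 0.13 log2 units per SD (SE, limma adjusted p = 0.00236), FN1 by 1.33 ± 0.19 (0.0121), ZEB2 by 1.20 ± 0.20 (0.0171) and CDH11 by 1.05 ± 0.11 (0.00411), each positive in 3 of 3 embryos. CDH2 fell by 0.76 ± 0.10 (0.00993), with slopes of -0.97 in the E20 embryo, -0.62 in E18 embryo 1 and -0.70 in E18 embryo 2. The call of CDH2 was lost with genes detected per region as a covariate (-0.58, limma adjusted p = 0.0616). Thus 5 of 9 genes passed, where 10.2% of all genes did (5.03% higher and 5.14% lower). Without E18 embryo 2, no gene of the table passed in limma (2592 at an unadjusted p under 0.05), although the mean slopes of the 5 genes were 1.58 for VIM, 1.35 for FN1, 0.97 for ZEB2, 1.10 for CDH11 and -0.79 for CDH2. Without E18 embryo 1, EPCAM also passed (0.39).

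The epithelial genes did not fall as a group along the mesenchyme score. CLDN7 had a mean slope of -0.45 (limma adjusted p = 0.0799), CDH1 of 0.03 (0.921) and EPCAM of 0.26 (0.156). SNAI1 had a mean slope of 0.08 (0.807), with -0.37 in the E20 embryo, 0.35 in E18 embryo 1 and 0.26 in E18 embryo 2. Regions with high mesenchyme scores also held amnion markers: the mesenchyme and amnion scores were correlated at r = 0.455 in the E20 embryo, 0.868 in E18 embryo 1 and 0.966 in E18 embryo 2. Sector 4 of section 1 in E18 embryo 2, with the highest mesenchyme score of its embryo, held 1065 TPM of VIM, 2203 of FN1 and 161 of ZEB2 next to 11.1 of CDH1, 395 of EPCAM and 113 of the amnion gene GABRP. The part of amnion cells in these slopes was not tested.

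**Figure D4:**
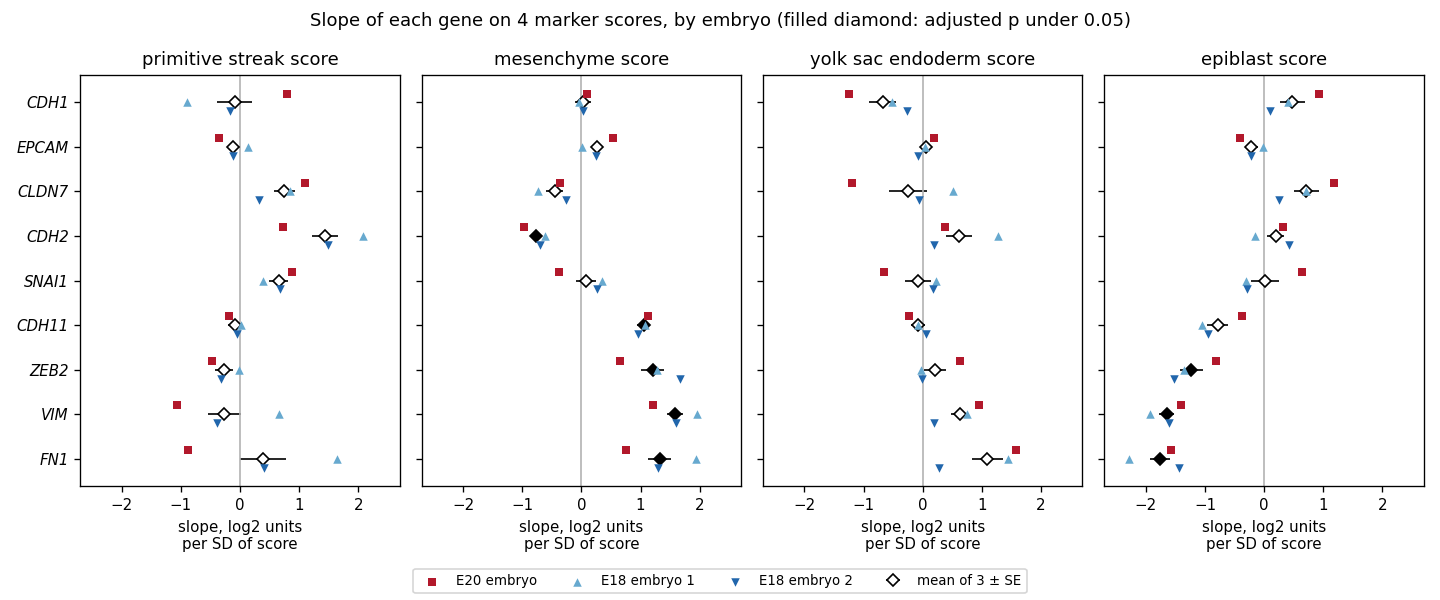
Slopes of the 9 genes on 4 marker scores, in log2(TPM + 1) per SD of the score: coloured symbols are the slopes in the E20 embryo, E18 embryo 1 and E18 embryo 2, diamonds the mean of the 3 embryos with its SE, filled where the limma adjusted p was under 0.05. On the mesenchyme score CDH11, ZEB2, VIM and FN1 are filled to the right of 0 and CDH2 to the left; on the streak score CDH2 and SNAI1 are to the right in all 3 embryos but open.

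The yolk sac endoderm score gave no calls: in limma 0 of 15216 genes passed (0%), and 667, among them CDH1, CDH2, VIM and FN1, had an unadjusted p under 0.05. The mean slopes were 1.09 ± 0.26 for FN1, 0.63 ± 0.15 for VIM, 0.61 ± 0.22 for CDH2 and -0.68 ± 0.22 for CDH1 (limma adjusted p = 0.772 for all 4). The markers spanned less outside the E20 embryo. Their largest sum was 160583 TPM in the E20 embryo, against 6110 TPM in E18 embryo 1 and 343 TPM in E18 embryo 2. Their mean log2 level ran from 0.24 to 10.8 in the E20 embryo. In E18 embryo 1 it ran from 0.32 to 5.27, and in E18 embryo 2 from 0.50 to 2.74. The yolk sac is therefore described from the E20 embryo itself, sections 1 to 5 against sections 6 and 7, with no test because both come from 1 embryo.

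Sections 1 to 5 of the E20 embryo differed from sections 6 and 7 by at least 1 log2 unit in 6 of 9 genes. FN1 was higher by 3.37, VIM by 3.09 and ZEB2 by 2.02 in sections 1 to 5, and there CLDN7 was lower (-3.49), as were CDH1 (-3.07) and SNAI1 (-1.89). Differences of that size were found for 31.8% of all genes, 8.26% higher and 23.5% lower, around a median of -0.27. EPCAM (0.53), CDH11 (0.45) and CDH2 (-0.27) differed by less. The ranges of all 9 genes overlapped between the section groups. VIM was above the highest value of sections 6 and 7 in 26 of 28 regions, ZEB2 in 16 and FN1 in 14. CDH1 was below the lowest value of sections 6 and 7 in 24 of 28 regions, and SNAI1 in 20. Without sector 4 of sections 6 and 7, the amnion-rich regions, EPCAM was also higher in sections 1 to 5 by 1.30 and CDH11 by 1.23, and CDH2 was lower (-0.93). Markers of other cells moved with this split: blood and endothelium markers summed to 490.3 TPM at the median in sections 1 to 5 (44.9 to 3993) and 49.1 TPM in sections 6 and 7 (22.4 to 499), over 8 genes. Trophoblast markers summed to 266 TPM in sections 1 to 5 (35.9 to 1664) and 23.3 TPM in sections 6 and 7 (3.54 to 177), over 5 genes. In sections 1 to 5, 4 of these 5 genes had a median under 1 TPM, against 2 in sections 6 and 7. The mean log2 level of the 5 genes had medians of 1.96 and 1.52 in the same order. ERVFRD-1 was listed at 0 throughout sections 1 to 5 and GCM1 throughout sections 6 and 7. Immune and decidual markers summed to 70.9 TPM (0.0491 to 154) and 3.43 TPM (0.343 to 4.82), over 8 genes. The part of all these other cells in the differences was not tested.

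**Figure D5:**
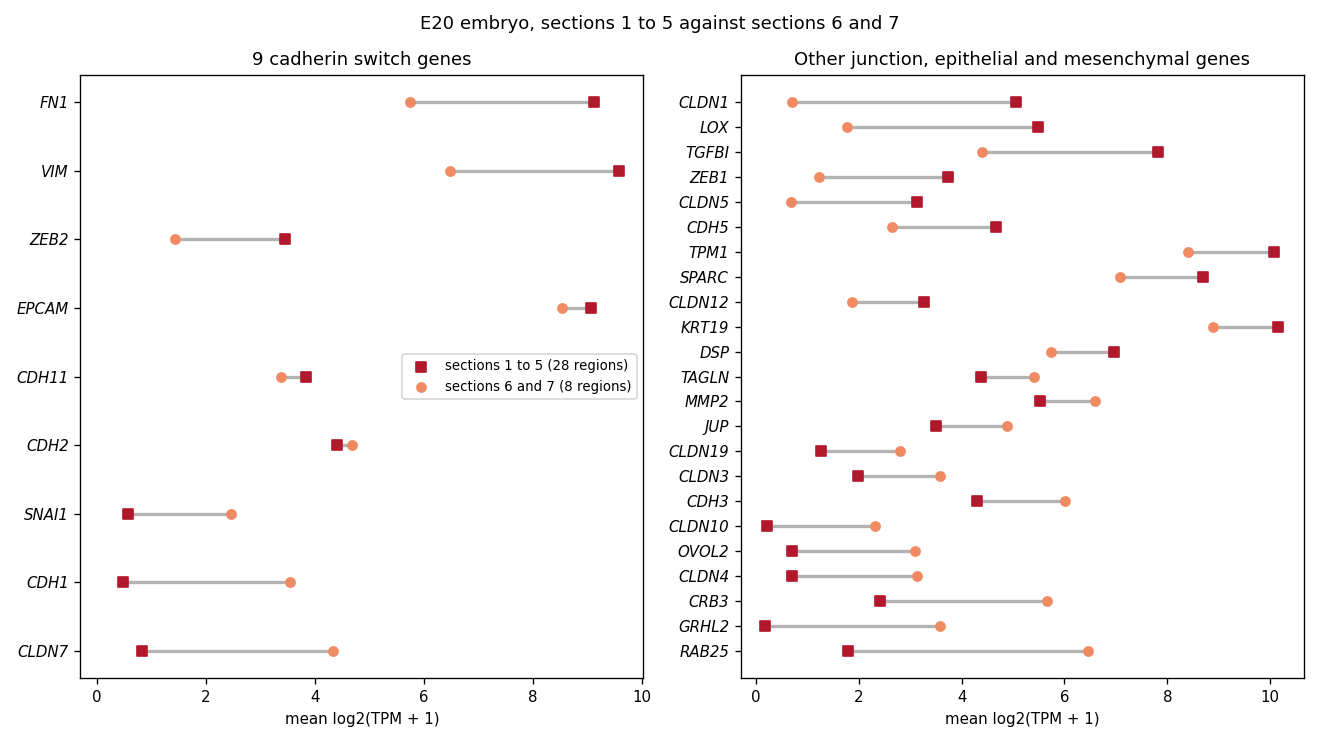
Mean log2(TPM + 1) in E20 sections 1 to 5 (squares, 28 regions) and sections 6 and 7 (circles, 8 regions) for the 9 genes (left) and for named genes of the epithelial, mesenchymal, cadherin and claudin lists (right), ordered by the difference. FN1, VIM and ZEB2 lie further right in sections 1 to 5, and SNAI1, CDH1 and CLDN7 further left.

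Inside E20 sections 1 to 5 the mesenchymal genes parted into separate arrangements. Over these 28 regions FN1 and CDH2 ran with the yolk sac endoderm score, at r = 0.683 (rho 0.580) and 0.661 (rho 0.575), and against the mesenchyme score, at r = -0.501 (rho -0.563) and -0.497 (rho -0.507). VIM and CDH11 did the opposite, with r = -0.591 for each on the yolk sac endoderm score (rho -0.781 for VIM and -0.704 for CDH11) and r = 0.772 (rho 0.774) and 0.757 (rho 0.675) on the mesenchyme score. VIM and FN1, which were correlated at r = 0.860 in E18 embryo 1 and 0.838 in E18 embryo 2, had r = -0.524 here. The regions share an animal, and the values are shares of a library in which yolk sac transcripts can take a large part, up to 160583 TPM.

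Single regions show both ends of this arrangement. Sector 1 of section 3, with 33654 TPM of AFP and 439 TPM of LUM, had 98.8 TPM of CDH2, 1358 of FN1, 215 of VIM and 1.57 of CDH11. Sector 6 of section 1, with 119 TPM of AFP and 7124 TPM of LUM, had 0.551 TPM of CDH2, 243 of FN1, 1331 of VIM and 29.9 of CDH11. EPCAM was 624 TPM in sector 1 of section 3 and 880.0 TPM in sector 6 of section 1, and CDH1 was under 1 TPM in both.

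Along the epiblast score the pattern was close to the reverse of the mesenchyme score for VIM, FN1, ZEB2 and CDH11, but not for CDH2. These scores were correlated at r = -0.563 in the E20 embryo, -0.878 in E18 embryo 1 and -0.925 in E18 embryo 2. CDH2 had epiblast slopes of 0.32, -0.15 and 0.42 in the same order, with a mean of 0.20 (limma adjusted p = 0.454). FN1 fell by 1.77 ± 0.17 log2 units per SD (SE, limma adjusted p = 0.0193), VIM by 1.65 ± 0.12 (0.0125) and ZEB2 by 1.23 ± 0.19 (0.0387), each in 3 of 3 embryos. These were 3 of 9 genes, where 2.03% of all genes passed (0.795% lower and 1.24% higher). CDH1 (0.48, 0.235) and CLDN7 (0.71, 0.116) had positive slopes in 3 of 3 embryos without passing, and CDH11 had a mean slope of -0.79 (0.0751). ZEB2 no longer passed without E18 embryo 1 (-1.17) or without the filter on low values (-1.23, adjusted p = 0.0657), and without E18 embryo 2 none of the 9 genes did.

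Along the amnion score none of the 9 genes passed in limma, where 0.762% of all genes did (0.716% higher and 0.046% lower). At an unadjusted limma p under 0.05 there were 7 of the 9 and 2001 of all 15216 genes. CDH2 was nearest, with a mean slope of -0.87 ± 0.15 (limma adjusted p = 0.0518) and negative slopes in 3 of 3 embryos. CDH1 had slopes of 1.06 in the E20 embryo, 0.60 in E18 embryo 1 and 0.10 in E18 embryo 2. Without the E20 embryo 5 of the 9 genes passed, CDH11, ZEB2, VIM and FN1 higher and CDH2 lower (-1.04). The share of 0.762% does not belong to that fit: leaving out each embryo in turn gave 0 to 1757 of all genes.

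Other genes of epithelia, of mesenchyme and of the cadherin and claudin families were read from lists. The lists overlap: JUP, CDH3, CLDN3, CLDN4 and CLDN10 are in the epithelial list and in the cadherin or claudin list. CDH6 is in the mesenchymal and cadherin lists. Of 29 tested epithelial genes, 0 rose and 6 fell at E20, where 2.64% of all genes rose and 8.75% fell, with a list median of -0.86 against -0.44 over all genes. F11R, a junctional adhesion molecule, fell by 2.63 (limma adjusted p = 2.75e-07), RAB25, a GTPase of apical recycling, by 2.54, the epithelial transcription factors GRHL2 and OVOL2 by 2.44 and 2.14, and the polarity gene CRB3 by 2.04. With quantile normalization 3 of the list fell (630 genes of the whole table), and OVOL2 and CRB3 lost their calls. With mitochondrially encoded genes left out 4 fell (732 of all genes), and GRHL2 and OVOL2 lost theirs. In E20 sections 1 to 5 GRHL2 was at most 1.45 TPM and RAB25 at most 21.2 TPM, below the lowest values of 2.23 and 44.0 TPM in sections 6 and 7, so that the section groups did not overlap for them, as for 0.808% of all genes. In this split 17 of the 29 epithelial genes were lower in sections 1 to 5 by at least 1 log2 unit, against 23.5% of all genes. The 2 that were higher, against 8.26% of all genes, were the keratin KRT19 (1.27) and the desmosomal plakin DSP (1.23, or 0.89 with quantile normalization). The list median was -1.21 against -0.27 over all genes.

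Along the mesenchyme score epithelial genes were called in both directions, where 5.03% of all genes rose and 5.14% fell. Those that rose were 5 of 29: KRT19 (1.28), DSP (0.79), P-cadherin CDH3 (0.68), PKP2 (0.59) and DSC2 (0.46), of which DSP, PKP2 and DSC2 encode desmosome proteins. Those that fell were also 5: the claudin CLDN10 (-0.86), the splicing regulator ESRP1 (-0.72), MAL2 (-0.57), CRB3 (-0.51) and F11R (-0.47). The list median was 0.12, against -0.02 over all genes. On the epiblast score CLDN10 rose by 1.06 and KRT19 and DSP fell by 1.16 and 0.75.

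Of 28 tested mesenchymal genes, 13 rose and 1 fell along the mesenchyme score, where 5.03% of all genes rose and 5.14% fell. The list median was 0.53, against -0.02 over all genes. The extracellular matrix gene TGFBI rose by 2.54 (limma adjusted p = 0.000137), tropomyosin TPM1 by 1.86, the matrix glycoprotein SPARC by 1.46, the repressor SNAI2 by 1.42 and TAGLN by 1.14. SNAI2 thus passed where its paralog SNAI1 did not; the difference between them was not tested. For stage, 4 of the 28 rose and 1 fell, where 2.64% of all genes rose and 8.75% fell. The list median was -0.42, against -0.44 over all genes. Those that rose were TGFBI (3.27), the collagen cross-linking enzyme LOX (3.17), TPM1 (1.96) and SPARC (1.42). The fibronectin receptor subunit ITGA5 fell by 1.65. SPARC and ITGA5 lost their calls with quantile normalization (1.10 and -1.02, limma adjusted p = 0.0898 and 0.1998) and with mitochondrially encoded genes left out (1.17 and -1.91, adjusted p = 0.0909 and 0.1004). Between the E20 section groups, LOX (3.71), TGFBI (3.41), ZEB1 (2.51), TPM1 (1.67) and SPARC (1.61) were higher in sections 1 to 5, and MMP2 (-1.06) and TAGLN (-1.03, or -0.88 with quantile normalization) were lower. The list median of this split was -0.08 and changed sign after quantile normalization (0.13).

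Of 24 other cadherins and catenins, JUP (plakoglobin) fell at E20 by 1.58, the only one to pass for stage, though not after quantile normalization. For stage 2.64% of all genes rose and 8.75% fell. Along the mesenchyme score 3 rose and 1 fell, where 5.03% of all genes rose and 5.14% fell. The 3 included CDH3 (0.68) and the endothelial cadherin CDH5 (0.47). In E20 sections 1 to 5 CDH5 was higher than in sections 6 and 7 by 2.03, while CDH3 (-1.70) and JUP (-1.38) were lower; CDH5 is also a marker of the blood and endothelium list. Among 14 tested claudins, CLDN1 stood opposite to CLDN7. It rose at E20 by 2.84, a call lost without mitochondrially encoded genes, and was higher in sections 1 to 5 by 4.35, with a lowest, median and highest value of 0.0907, 59.8 and 147 TPM there and 0, 0.581 and 1.57 TPM in sections 6 and 7. CLDN5, a claudin known from endothelium, was higher in sections 1 to 5 by 2.45 and CLDN12 by 1.40, and CLDN4 (-2.44), CLDN10 (-2.10), CLDN3 (-1.58) and CLDN19 (-1.52) were lower. These were 7 of the 14 claudins, 3 higher and 4 lower, against 31.8% of all genes; the other 7 differed by less than 1 log2 unit, and no test was made.

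For each of the 9 genes the genes most like it were found by the mean of the 3 within-embryo Pearson correlations over regions (36, 15 and 35), among 8830 genes with a mean of at least 5 TPM. The most like CDH1 was GRHL2 (mean r 0.703), followed by VTCN1 (0.665), a gene of the amnion score. For CDH2 they were ARHGAP24, ADAMTS19 and EPHA4 (0.769, 0.769 and 0.764), and for CDH11 they were MCOLN3 and HAND1 (0.824 and 0.807), of which HAND1 belongs to the mesenchyme score. SNAI1 was most like PTK7 (0.671), EVX1 (0.657), WNT5A (0.648), AXIN2 (0.623) and MIXL1 (0.605), of which EVX1 and MIXL1 are streak score genes. ZEB2 was most like HAPLN1 (0.791), VIM most like S100A10 (0.911) and ANXA2 (0.891), FN1 most like LAMB1 (0.909) and CD99 (0.881), EPCAM most like SLC2A14 (0.705) and CLDN7 most like LYPD2 (0.704).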

How the data were processed

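Per the submitters' processing notes, the authors used fastp, HISAT2 and StringTie. The sources used here name no version, genome build or gene models. No coordinates are printed. The authors deposited TPM for 17023 genes in 86 columns, all matched to labels by stage, embryo, section and sector (0 unmatched); columns sum to between 495547 and 777987 TPM, so the table leaves out part of what was normalized over. TPM keeps no counts, so depth is unknown and no counting interval is given. No columns were identical (0 pairs). Of the symbols, 15335 match the RefSeq table given, all 9 genes included; its assembly was not tied to the files' build, and no sequence is shown.

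From these values log2(TPM + 1) was computed for 15216 genes at 1 TPM or more in at least 10 regions. Models were fitted in limma 3.58.1 (eBayes with trend, R 4.3.3), two-sided, with Benjamini-Hochberg adjustment over all genes at 0.05: embryo means for stage (1 residual degree of freedom), and 3 embryo slopes against 0 for each marker score, a list gene being fitted to the score made without it. Regions of an embryo are not replicates. The p-values of the score slopes measure the spread between 3 embryos, moderated over genes. Those of the stage fit rest on the spread of the E18 pair, pooled over genes, and the spread between E20 embryos is not measured. The stage fit and the main score slope fits were also run on simulated data with planted effects. The alternatives and the interaction test were not. The simulated noise was independent between genes and regions, and for stage equal in all 3 embryos. Real regions share tissue make-up, so these runs give no error rates for the real data. Alternatives were another pseudocount (0.1), no filter, a stricter filter (5 TPM in 20 regions), quantile normalization, no mitochondrially encoded genes, regions as units, genes detected as a covariate, E20 section groups as blocks, and leaving out each embryo or section. Leaving out sector 4 of E20 sections 6 and 7 was chosen after seeing the data. The genes, lists, E20 section split and comparisons were chosen with earlier results of these data known. Named genes beyond the 9 are, per list and comparison, the 5 largest called effects in each direction with a mean of at least 5 TPM. Tables and figures used pandas 2.3.3, numpy 2.4.6 and matplotlib 3.10.9.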

Additional observations from a re-analysis of the deposited data

Results flagged for a closer look

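The slopes of several genes on the marker scores differed between the 3 embryos in a limma F test of the score by embryo interaction over regions. Regions are not replicates, so these adjusted p-values are too small; 2.02% to 13.9% of all genes passed the same test. Slopes are in log2 units per SD, given for the E20 embryo, E18 embryo 1 and E18 embryo 2 in that order.

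CDH1 differed on the streak score (0.79, -0.90 and -0.17, limma adjusted p = 0.00831), the yolk sac endoderm score (-1.24, -0.52 and -0.26, 0.0220) and the amnion score (1.06, 0.60 and 0.10, 0.0450). CLDN7 differed on the yolk sac endoderm score (-1.20, 0.51 and -0.06, 0.000387), the epiblast score (1.18, 0.71 and 0.24, 0.0429) and the amnion score (1.01, -0.55 and -0.28, 0.00150). SNAI1 differed on the yolk sac endoderm score (-0.65, 0.22 and 0.18, 0.0380) and the epiblast score (0.64, -0.31 and -0.29, 0.0157). ZEB2 differed on the mesenchyme score (0.66, 1.28 and 1.67, 0.0365) and the amnion score (-0.18, 0.85 and 1.54, 0.000299). VIM differed on the amnion score (-0.16, 1.52 and 1.50, 0.000669) and FN1 on the streak score (-0.88, 1.64 and 0.40, 0.0330).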

How the results depend on the processing

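No paired analysis was possible because the E20 stage has 1 embryo and the labels' numbers name embryos, sections and sectors, not pairs. Causes of the changes below were not tested. For stage (1734 genes called, 3 of the 9), 885 genes were called without mitochondrially encoded genes, 0 genes and 0 of the 9 with medians over regions, 6 genes and 0 of the 9 with E20 sections 6 and 7, and 2970 genes and 5 of the 9 with sections 1 to 5. With sections 6 and 7 the signs turned for CDH1 (0.23), CDH11 (-0.20), SNAI1 (0.0471), ZEB2 (-1.16), VIM (-0.40) and FN1 (-1.81); CDH11 also turned without mitochondrially encoded genes (-0.0705). Leaving out an E18 embryo leaves no residual degree of freedom, so no test was run; ZEB2 then differed by -0.62 or 1.45.

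On the streak score (61 genes called), 30 genes were called with a pseudocount of 0.1, 7 without the filter, 38 with the stricter filter, 18 after quantile normalization, 9 with genes detected as a covariate, 3303 (4 of the 9) with regions as units and 417 (2 of the 9) with E20 blocks; without mitochondrially encoded genes 1 of the 9 was called. On the mesenchyme score (1548 genes), the counts were 795 without the filter, 4760 with regions as units, 1012 with E20 blocks and 896 without sector 4. On the yolk sac endoderm score (0 genes), 2108 genes and 4 of the 9 were called with regions as units. On the epiblast score (309 genes), the counts were 193 with the pseudocount, 37 without the filter, 590 with the stricter filter, 974 after quantile normalization, 6204 (7 of the 9) with regions as units, 708 with the covariate and 1370 with E20 blocks. On the amnion score (116 genes, 0 of the 9), the counts were 58 with the pseudocount, 0 without the filter, 213 (1 of the 9) after quantile normalization, 3273 (8) with regions as units, 258 (2) with the covariate, 1583 (5) with E20 blocks and 0 without sector 4, and 1 of the 9 passed with the stricter filter. Between E20 section groups, 7907 in place of 4835 genes were at least 1 apart with the pseudocount. Leaving out each embryo gave 0 to 723 genes and 0 to 3 of the 9 on the streak score, 0 to 1629 and 0 to 6 on mesenchyme, 0 to 0 on yolk sac endoderm, 0 to 880 and 0 to 4 on epiblast and 0 to 1757 and 0 to 5 on amnion; leaving out each E20 section gave 4724 to 5169 genes and 6 to 6 of the 9.

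The slopes that turned sign with other settings were CDH1 on streak with the pseudocount (0.0732) and regions as units (0.112), CDH11 on streak with the covariate (0.0514), and CDH1 on mesenchyme with the pseudocount (-0.0829), the covariate (-0.0307) and without sector 4 (-0.0775). On yolk sac endoderm they were EPCAM (-0.0211), CLDN7 (0.30), SNAI1 (0.21) and ZEB2 (-0.19) with E20 blocks. On epiblast they were SNAI1 after quantile normalization (-0.14), without mitochondrially encoded genes (-0.0226), with the covariate (-0.10) and with E20 blocks (-0.31), CDH2 with the covariate (-0.0549) and CDH1 with E20 blocks (-0.19). On amnion it was CLDN7 after quantile normalization (-0.0064), with E20 blocks (-0.18) and without sector 4 (-0.11). Leaving out each embryo turned the sign within these ranges: on streak CDH1 (-0.53 to 0.31), EPCAM (-0.235 to 0.00695), VIM (-0.72 to 0.14) and FN1 (-0.24 to 1.02); on mesenchyme CDH1 (-0.00587 to 0.0576) and SNAI1 (-0.0552 to 0.31); on yolk sac endoderm EPCAM (-0.0205 to 0.118), CLDN7 (-0.63 to 0.23), SNAI1 (-0.24 to 0.20) and ZEB2 (-0.0157 to 0.31); on epiblast SNAI1 (-0.30 to 0.17); and on amnion CLDN7 (-0.42 to 0.36). None of these slopes had passed with 3 embryos.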
